A study of Homo sapiens with 40 samples.

Results

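The mRNAs described here encode the 8 subunits of the cytosolic chaperonin CCT, also called TRiC: TCP1 (the alpha subunit), CCT2 (beta), CCT3 (gamma), CCT4 (delta), CCT5 (epsilon), CCT6A (zeta), CCT7 (eta) and CCT8 (theta). They were found by symbol, were proposed with earlier results of these data known, and are 8 of the 55765 gene symbols counted in each library. All 8 had a row, and all passed the filter on low counts in every experiment.

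CCT is a double-ring machine of the cytosol in which each ring holds 1 copy of each subunit, and it closes around newly made proteins so that they can fold inside. Actins and tubulins depend on it, as do many proteins built from WD40 repeats. The subunits differ in how they use ATP: in the ring, CCT5, CCT2, CCT4 and TCP1 lie on the side that binds and hydrolyses it readily, and CCT3, CCT6A, CCT8 and CCT7 lie on the other. Since every ring needs each subunit in equal number, the order and co-variation of the subunit mRNAs are of interest wherever they are measured together.

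The study sequenced RNA from HEK293 cells, an established human line derived from embryonic kidney, in 40 libraries that form 12 groups. In the RNA immunoprecipitation (RIP-Seq) experiment, cells were lysed and RNA was recovered with antibodies to the endogenous DEAD-box proteins eIF4A1, eIF4A2 or DDX6, beside total RNA of the lysate (3 libraries per group). eIF4A1 is the helicase of the cap-binding complex eIF4F, eIF4A2 is its close paralogue, and DDX6 is a known partner of the Ccr4-Not deadenylase complex. The study reports eIF4A2 as a partner of Ccr4-Not too, which other groups have contested. In the gradient experiment, CNOT1, the large subunit on which Ccr4-Not assembles, was knocked down with siRNA beside a control siRNA. Lysates were run on sucrose gradients, and 3 RNAs were sequenced per siRNA: the input, the subpolysomal pool (fractions 1 to 5) and the polysomal pool (fractions 6 to 11), with 4 libraries per group. In the last experiment, TNRC6A and TNRC6B, scaffold proteins of microRNA silencing, were knocked down together beside a control siRNA, and total RNA was sequenced (2 libraries per group). No library from a non-specific antibody was analysed here, so an immunoprecipitate (IP) is compared with total RNA or with another IP. In all of these bulk libraries, fewer cells with a transcript and less of it per cell cannot be told apart.

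Total counts ran from 15.4 to 46.0 M (M, mega) per library, and the lowest count of any CCT subunit in any library was 3276. Values are given as CPM, a gene's counts scaled to a common library total with TMM factors. The RIP-Seq libraries carry no knockdown that could check their labels, and in the siRNA experiments the targeted mRNAs went with the labels in all but 2 libraries: CNOT1 was at 628 to 711 CPM in the control and 36.8 to 41.4 CPM in the CNOT1 siRNA input libraries, but at 28.3 CPM in the library labelled control siRNA polysomal replicate 3 and at 631 CPM in the library labelled CNOT1 siRNA polysomal replicate 3. The polysomal comparisons are therefore given with and without these 2 libraries, and polysomal levels and shares with them; leaving them out of the lists, the related rows, the joint counts and the profiles was added after seeing the data. TNRC6A was at 178 and 189 CPM with control siRNA and at 40.5 and 64.7 with TNRC6A/B siRNA, and TNRC6B at 67.6 and 73.1 against 17.7 and 26.3. NEFM and VIM, which HEK293 cells express, were at 2630 to 5070 and 409 to 676 CPM in total and input RNA, and 4 of 5 markers of blood, liver, endothelium and squamous epithelium had a row and reached at most 12 counts in any library.

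The sequence around the start codon is shown first, because the study followed short purine-rich stretches of the 5′UTR. These were counted as the tetramers AAGA or AGAA or GAAA or GAGA or AGAG or GGAA or AAAA or GAAG on the transcript strand, without overlap, in the MANE Select transcript of GENCODE 44 on GRCh37. Of the 8 subunits, 4 hold such a tetramer within 50 nt of the start codon: CCT7 (3), CCT2 (2), TCP1 (1) and CCT5 (1). CCT3, CCT4, CCT6A and CCT8 hold none there. Among 10754 coding genes with a 5′UTR of that length, 59.3% hold at least 1. The stretches that contain them are printed 5′ to 3′ with the tetramers in capitals, each from 1 exon within the 5′UTR and read from GRCh37: TCP1 from chr6:160210501-160210530 (minus strand), CCT2 from chr12:69979272-69979301 (plus), CCT5 from chr5:10250423-10250452 (plus) and CCT7 from chr2:73461465-73461494 (plus). The first 3 end at the base before the start codon and the CCT7 stretch ends 12 nt before it.
TCP1: cAGAAttcgacgtgtatcgctgccgtcaag
CCT2: attcacttgtgtgcGGAActcctcGGAAcc
CCT5: ttggggGGAAgtaattccggttgttgcacc
CCT7: GAGAAGAGggGAGAgtggcgggccgctgaa
The CCT7 stretch holds 3 of them, and over its whole 5′UTR CCT7 holds 4.23 tetramers per 100 nt, more than 90.8% of genes, whereas CCT8 holds none. These counts depend on the transcript: in the longest coding transcript CCT7 holds 2.96 per 100 nt and 1 within 50 nt of the start codon, CCT8 holds 2.31 per 100 nt and 1 there, and the other 6 keep their number within 50 nt. In the 30 nt next to the start codon 3 of the subunits hold a tetramer, beside 44.9% of 11661 coding genes.

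The 8 genes lie on 7 chromosomes, with CCT4 and CCT7 both on chromosome 2. On GRCh37, TCP1 (ENSG00000120438) is annotated at chr6:160199530-160210735 on the minus strand, CCT2 (ENSG00000166226) at chr12:69979206-69995350 on the plus strand, CCT3 (ENSG00000163468) at chr1:156278759-156337664 (minus) and CCT4 (ENSG00000115484) at chr2:62095220-62115806 (minus). CCT5 (ENSG00000150753) is at chr5:10250041-10266501 (plus), CCT6A (ENSG00000146731) at chr7:56119378-56131682 (plus), CCT7 (ENSG00000135624) at chr2:73460548-73480149 (plus) and CCT8 (ENSG00000156261) at chr21:30428126-30446118 (minus). Their coding sequences are of nearly one length, 1596 to 1671 nt, against a median of 1440 nt over 12835 expressed coding genes. Most of the subunits have short UTRs. The 5′UTR is 58 nt in CCT8, 61 in CCT5, 63 in CCT2, 71 in CCT7, 84 in CCT6A, 108 in CCT3, 134 in TCP1 and 149 in CCT4, a median of 77.5 nt against 147 nt (quartiles 74 and 272). With the longest coding transcript of each gene the subunits' median rises to 141.5 nt, so the short 5′UTRs depend on the transcript chosen. The 3′UTR varies more, from 144 nt in CCT7 and 149 nt in CCT8 to 904 nt in CCT6A and 1606 nt in CCT5, with a median of 396 nt against 1348 nt. The coding sequence is low in GC, with a median of 44.56% against 52.51%.

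Because CPM grows with transcript length, levels were compared between subunits as CPM per kb of the MANE Select transcript. In total RNA of the RIP-Seq experiment the order was CCT3 (537 ± 53.9 CPM per kb, mean ± SD, n = 3), TCP1, CCT7, CCT8, CCT4, CCT6A, CCT5 and CCT2 (275), a ratio of 1.95 between the highest and the lowest. Of the neighbours in this order, CCT7 (468) and CCT8 (344) did not overlap between libraries, and each other pair did, so that the subunits form a higher set of 3 and a lower set of 5. The same set of 3 led in both inputs, both polysomal groups and both groups of the TNRC6 experiment, with ratios of 1.71 to 2.41. Levels were more uneven in the IP and subpolysomal libraries. There TCP1 was the highest subunit in all 5 groups, and the ratio of highest to lowest was 3.79 with eIF4A1, 3.33 with eIF4A2, 3.43 with DDX6, 3.79 in subpolysomal RNA with control siRNA and 3.19 with CNOT1 siRNA. In the eIF4A1 IP, TCP1 was at 223 and CCT5 at 58.9 CPM per kb, and CCT6A and CCT7 were the sole neighbours whose libraries overlapped. In the subpolysomal RNA of control cells, TCP1 was at 352 and CCT4 at 92.8 CPM per kb, and CCT3 and CCT7 were the sole neighbours without overlap. Counted over the union of annotated exons, TCP1 moved from rank 2 to rank 4 in RIP total RNA and CCT4 from rank 5 to rank 2, while TCP1 stayed first in the IPs and the subpolysomal groups. By that length TCP1 was also at rank 4 in control input, both polysomal groups and the control of the TNRC6 experiment. CCT4 was at rank 1 in input and polysomal RNA with CNOT1 siRNA. The ratio of highest to lowest by that length was 3.14 with eIF4A1, 2.75 with eIF4A2 and 3.17 with DDX6. It was 2.85 in subpolysomal RNA with control and 2.63 with CNOT1 siRNA, and 1.72 to 2.2 in the other groups. CCT2 was then the lowest subunit in the eIF4A1 and DDX6 IPs and in control subpolysomal RNA. Which 3 subunits led, which was lowest and the size of the ratios thus depend on the length chosen.

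The first comparison asked which mRNAs were carried with each helicase. All 8 CCT mRNAs were lower in each of the 3 IPs than in total RNA, and the size of the difference was graded among the subunits: least in TCP1 and most in CCT7 and CCT5 with each antibody. Their summed share of all counts was 0.547% to 0.611% in total RNA, 0.212% to 0.217% with eIF4A1, 0.219% to 0.249% with eIF4A2 and 0.246% to 0.254% with DDX6. In edgeR's quasi-likelihood test with Benjamini-Hochberg adjustment over 17474 genes (FDR), all 8 passed as lower in each IP. In the background, 26.5% of genes were called lower and 26.1% higher with eIF4A1, 25.8% and 24.5% with eIF4A2, and 23.3% and 22.7% with DDX6. The median log2 difference of the 8 was -1.72, -1.63 and -1.47 in the eIF4A1, eIF4A2 and DDX6 IP, where that of all genes was 0.04, 0.01 and 0.01. The 3 comparisons share the total RNA libraries. Values in an IP are shares of the RNA recovered, and nothing here measures how much RNA each antibody recovered.

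On the side of the ring that uses ATP readily, CCT5 was at 999.9, 1028 and 813 CPM in the total RNA libraries, 179.5, 193 and 209 with eIF4A1, 241, 194 and 215 with eIF4A2 and 288, 276 and 270.3 with DDX6. The total RNA libraries of CCT5, a subunit of high ATP affinity, stood far above all of its IP libraries. The CCT5 log2 differences from total RNA were -2.29 (SE 0.15), -2.13 (SE 0.15) and -1.77 (SE 0.15), which is 4.89-fold, 4.37-fold and 3.4-fold lower (FDR = 8.29e-07, 4.68e-07 and 8.11e-06). CCT2 was at 533, 574.5 and 474 CPM in the total RNA libraries, 145, 140.3 and 150 with eIF4A1, 182, 149 and 177 with eIF4A2 and 185, 189.9 and 182 with DDX6. The 9 CCT2 IP libraries lay far below the 3 total RNA libraries, without overlap. The CCT2 log2 differences from total RNA were -1.86 (SE 0.13), -1.64 (SE 0.13) and -1.50 (SE 0.13). CCT4 was at 749.8, 779.8 and 611 CPM in the total RNA libraries, 229.7, 231.5 and 224 with eIF4A1, 239, 194 and 213 with eIF4A2 and 268, 263 and 238 with DDX6. CCT4, with CCT5 among the strongest ATP-binding subunits, was the only one of the 8 besides TCP1 whose mean was lower with eIF4A2 than with eIF4A1. The CCT4 log2 differences from total RNA were -1.64 (SE 0.14), -1.73 (SE 0.14) and -1.48 (SE 0.14). TCP1 was at 1115, 1297 and 991 CPM in the total RNA libraries, 473, 624 and 478.5 with eIF4A1, 496, 568.5 and 481 with eIF4A2 and 623, 804.5 and 617 with DDX6. TCP1, the subunit that gave the complex its name, kept the highest level in the IPs, although no IP library reached the lowest total RNA library. The TCP1 log2 differences from total RNA were -1.11 (SE 0.17), -1.14 (SE 0.17) and -0.74 (SE 0.17), with FDR = 0.000162, 0.000135 and 0.00374. Of all genes tested, 10.95%, 10.38% and 17.37% had a lower log2 difference than TCP1.

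On the other side of the ring, CCT7 was at 920.2, 965.5 and 706 CPM in the total RNA libraries, 162, 171.5 and 162 with eIF4A1, 180.2, 160.3 and 194 with eIF4A2 and 232, 235.5 and 217 with DDX6. The IP libraries of CCT7 lay far below total RNA, with the DDX6 libraries above those of both eIF4A paralogues. The CCT7 log2 differences from total RNA were -2.38 (SE 0.15), -2.28 (SE 0.15) and -1.92 (SE 0.15), which is 5.22-fold, 4.85-fold and 3.79-fold lower (FDR = 7.84e-07, 4.28e-07 and 8.11e-06). With a log2 difference below CCT7's were 1.45%, 0.67% and 2.24% of genes. CCT3 was at 1078, 1158 and 947 CPM in the total RNA libraries, 292, 311 and 337.5 with eIF4A1, 322, 320.4 and 401 with eIF4A2 and 381, 382.5 and 395 with DDX6. The CCT3 log2 differences from total RNA were -1.76 (SE 0.15), -1.61 (SE 0.14) and -1.46 (SE 0.14). CCT6A was at 762, 858.5 and 688 CPM in the total RNA libraries, 241, 241 and 239 with eIF4A1, 287, 253 and 265 with eIF4A2 and 294, 290.4 and 279 with DDX6. The CCT6A log2 differences from total RNA were -1.68 (SE 0.13), -1.52 (SE 0.13) and -1.42 (SE 0.13). The 3 eIF4A1 libraries of CCT6A were nearly alike. CCT8 was at 667, 695 and 553 CPM in the total RNA libraries, 216, 230 and 230.3 with eIF4A1, 253, 229 and 257 with eIF4A2 and 268, 266 and 252 with DDX6. The CCT8 log2 differences from total RNA were -1.50 (SE 0.13), -1.37 (SE 0.13) and -1.29 (SE 0.13). CCT8 had, after TCP1, the smallest difference with each antibody. For all 8 subunits the IP libraries lay below each total RNA library. Groups that do not overlap in this direction were seen in 29.3% of genes with eIF4A1, 30.0% with eIF4A2 and 29.0% with DDX6.

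**Figure D1:**
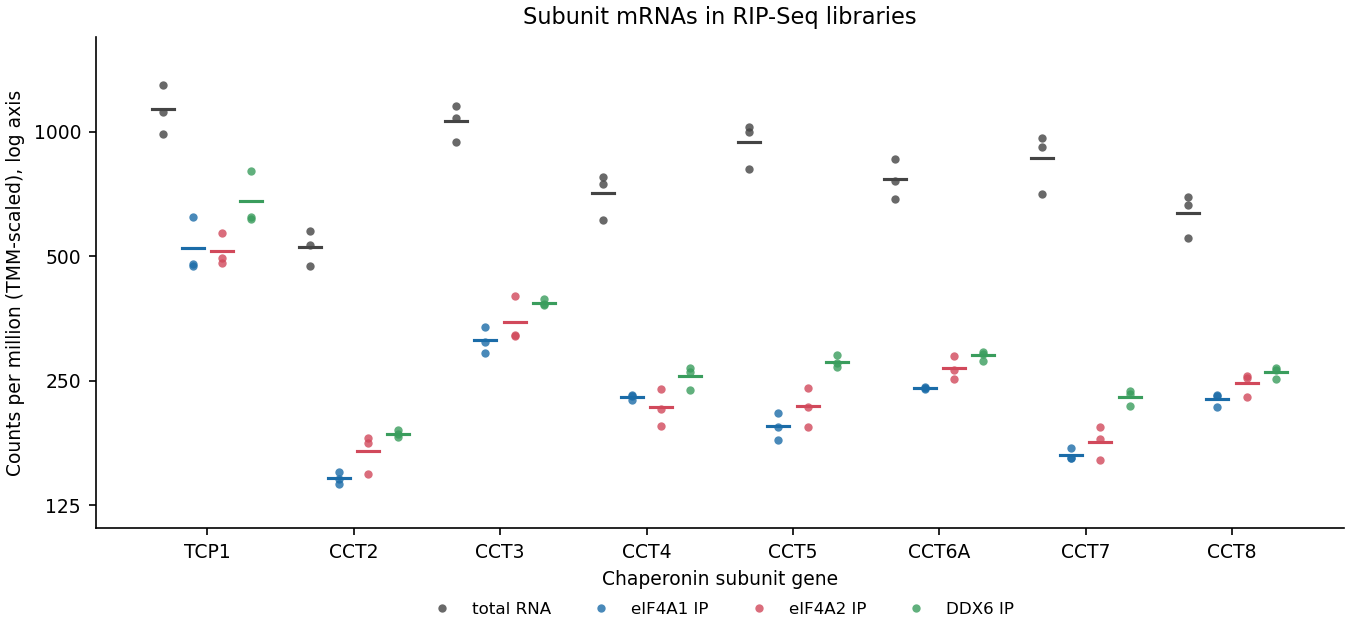
CPM (log axis) of the 8 CCT mRNAs in the 12 RIP-Seq libraries; points are libraries, bars are group means, and colours mark the RNA source, total or recovered with the antibody to eIF4A1, eIF4A2 or DDX6 (n = 3 each). For each subunit the 9 IP points lie below the 3 total RNA points, with the smallest gap in TCP1 and the largest in CCT7 and CCT5.

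Compared directly with one another, the IPs differed far less. Between the eIF4A2 and the eIF4A1 IP, the subunits' log2 differences ran from -0.08 (CCT4) to 0.22 (CCT2) with a median of 0.14. None passed the test (edgeR quasi-likelihood FDR from 0.381 to 0.95), none had an unadjusted p under 0.05, and DESeq2 called none. The intervals allow modest differences either way, as in CCT2, with a 95% interval of -0.05 to 0.50. In this comparison 0.973% of genes were called higher and 0.0858% lower. CCT6A alone had eIF4A2 libraries that were all above the eIF4A1 libraries, a pattern seen in 10.3% of genes.

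In the DDX6 IP, the 8 CCT mRNAs were 0.17 (CCT4) to 0.52 (CCT5) higher on the log2 scale than in the eIF4A1 IP, with a median of 0.33. Over all genes the log2 differences from total RNA spread less with DDX6 (lower and upper decile -1.02 and 0.96) than with eIF4A1 (-1.16 and 1.10). The part of this narrower spread in the subunits' values was not tested. The DDX6 libraries lay above all eIF4A1 libraries for 7 of the 8, the exception being TCP1. Of all genes, 9.16% showed this. CCT5 was at 278 ± 9.24 CPM with DDX6 and at 194 ± 14.8 with eIF4A1 (mean ± SD, n = 3), a log2 difference of 0.52 (95% interval 0.22 to 0.83, FDR = 0.174). CCT7 differed by 0.46 (0.15 to 0.77, FDR = 0.201) and TCP1 by 0.38 (0.01 to 0.75, FDR = 0.352). None passed edgeR's test, in which 0.0801% of genes were called higher and 0.0114% lower; 4 subunits had an unadjusted p under 0.05. With the replicate number as a block, since same-numbered RIP-Seq libraries deviated together, 3 were called: CCT5 at 0.52 (FDR = 0.0245), CCT7 at 0.46 (FDR = 0.0392) and TCP1 at 0.38 (FDR = 0.0434). In that blocked fit 6.08% of all genes were called higher. The number of total RNA replicate 3 is in doubt, since its title, which was followed, and its description give different ones. A blocked fit of the 9 IP libraries alone, added after seeing the data, called 5 (TCP1, CCT2, CCT3, CCT5 and CCT7, FDR from 0.0191 to 0.047), beside 9.36% of all genes called higher. DESeq2 called CCT5 (FDR = 0.00868) and CCT7 (FDR = 0.0303), beside 2.07% of all genes.

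The eIF4A2 IP, set against the DDX6 IP, showed lower values for all 8, from -0.09 (CCT8) to -0.40 (TCP1) with a median of -0.20. TCP1 was at 515 ± 46.8 CPM with eIF4A2 and 681 ± 107 with DDX6 (FDR = 0.111), and CCT5 (-0.36, FDR = 0.0838) and CCT7 (-0.36, FDR = 0.0908) followed. None passed edgeR's test, 3 had an unadjusted p under 0.05, and 4 (TCP1, CCT2, CCT5 and CCT7) had groups that did not overlap, as did 20.5% of genes in this direction. Of all genes, 11.3% were called lower and 9.82% higher. With the replicate block, the same 3 subunits were called as against eIF4A1, TCP1 at -0.40 (FDR = 0.0104), CCT5 at -0.36 (FDR = 0.0355) and CCT7 at -0.35 (FDR = 0.0412), where 22.0% of all genes were called lower. The blocked fit of the IP libraries alone called these 3 too (FDR from 0.0067 to 0.0217), beside 23.6% of all genes. DESeq2 called CCT5 (-0.36, FDR = 0.0398), beside 13.6% of all genes called lower. Both of these comparisons use the same DDX6 libraries. With eIF4A2, too, the differences of all genes from total RNA spread more (deciles -1.16 and 1.11) than with DDX6 (-1.02 and 0.96). Its part in the subunits' values was not tested.

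The gradient addressed how the share that each mRNA took of the RNA differed between the polysomal and the subpolysomal pool. All 8 CCT mRNAs took a larger share of polysomal than of subpolysomal RNA, in control and in CNOT1 siRNA cells, with TCP1 again the least and CCT4, CCT5 and CCT7 the most different. Their summed share of counts was 0.260% to 0.355% in subpolysomal and 0.637% to 0.740% in polysomal RNA with control siRNA, and 0.361% to 0.452% against 0.662% to 0.787% with CNOT1 siRNA. Each fraction was sequenced from a like amount of RNA, so these are shares within a fraction and not the share of a gene's transcripts found in polysomes. By edgeR's quasi-likelihood test all 8 passed as higher under both siRNAs, beside 34.8% of 16776 genes called higher and 37.0% called lower with control siRNA, and 34.1% and 34.7% with CNOT1 siRNA. The median log2 difference of the 8 was 1.26 and 1.31, and that of all genes -0.02 and -0.01.

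CCT5 was at 353, 399, 286 and 347 CPM in subpolysomal and 1057, 1254, 1278 and 1127 CPM in polysomal RNA with control siRNA, and at 391, 430.5, 346 and 338.5 against 1205, 1341, 1141 and 1254 CPM with CNOT1 siRNA. In each of the 8 pairs of libraries with the same number, CCT5 was higher in the polysomal one, by log2 ratios of 1.58 to 2.16. This gave a log2 difference of 1.77 (SE 0.11, FDR = 4.83e-13) with control siRNA and of 1.71 (SE 0.11, FDR = 1.45e-12) with CNOT1 siRNA. CCT4 was at 225, 271, 187 and 198 CPM in subpolysomal and 695, 806, 821 and 743 CPM in polysomal RNA with control siRNA, and at 310.3, 355.5, 289 and 275 against 819, 892, 734 and 835 CPM with CNOT1 siRNA. CCT4 had the largest difference with control siRNA, 3.47-fold, and was 2.67-fold higher with CNOT1 siRNA, where its subpolysomal libraries were all above those of control cells. The CCT4 fit gave a log2 difference of 1.80 (SE 0.11, FDR = 5.87e-13) with control siRNA and of 1.42 (SE 0.11, FDR = 4.94e-11) with CNOT1 siRNA. CCT2 was at 265, 306, 207 and 226 CPM in subpolysomal and 541, 644, 732 and 598 CPM in polysomal RNA with control siRNA, and at 305, 345, 281 and 267 against 663, 741, 603 and 689.9 CPM with CNOT1 siRNA. CCT2 groups did not overlap, and it showed a log2 difference of 1.32 (SE 0.12, FDR = 5.13e-10) with control siRNA and of 1.17 (SE 0.12, FDR = 5.5e-09) with CNOT1 siRNA. TCP1 was at 762, 1145, 664 and 739 CPM in subpolysomal and 1164, 1300, 1175 and 1183 CPM in polysomal RNA with control siRNA, and at 852, 1156, 656 and 762 against 1197, 1307, 1126 and 1170 CPM with CNOT1 siRNA. In TCP1 replicate 2 of both subpolysomal groups was high, close to the polysomal libraries. With CNOT1 siRNA the groups overlapped, since it stood at 1156 CPM and the library labelled polysomal replicate 3 at 1126 CPM. That polysomal library is 1 of the 2 whose CNOT1 level went against their labels, and the other polysomal libraries lay at 1170 CPM or above. TCP1 had a log2 difference of 0.54 (SE 0.15, FDR = 0.00218) with control siRNA and of 0.49 (SE 0.15, FDR = 0.00558) with CNOT1 siRNA. Of all genes 68.89% had a lower log2 difference than TCP1 with control siRNA, against 96.72% for CCT4.

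CCT7 was at 295, 355, 250.3 and 295 CPM in subpolysomal and 991.5, 1131, 952 and 999.7 CPM in polysomal RNA with control siRNA, and at 352, 426, 301 and 313 against 913, 1043, 1035 and 977.5 CPM with CNOT1 siRNA. The CCT7 polysomal to subpolysomal log2 ratio was 1.67 to 1.93 across control replicates, and it had a log2 difference of 1.77 (SE 0.11, FDR = 1.19e-12) with control siRNA and of 1.51 (SE 0.11, FDR = 2.52e-11) with CNOT1 siRNA. CCT3 was at 550.1, 589, 459 and 522 CPM in subpolysomal and 996, 1128, 1161 and 937 CPM in polysomal RNA with control siRNA, and at 510.5, 582, 454 and 417 against 1083, 1248, 1046 and 1062 CPM with CNOT1 siRNA. CCT3, the subunit at the highest level per length in total RNA, showed a log2 difference of 0.99 (SE 0.11, FDR = 1.61e-08) with control siRNA and of 1.18 (SE 0.11, FDR = 1.31e-09) with CNOT1 siRNA. CCT6A was at 389, 453, 295 and 314 CPM in subpolysomal and 659, 823, 830.4 and 729 CPM in polysomal RNA with control siRNA, and at 379.6, 433, 333 and 323 against 841, 947, 741 and 863 CPM with CNOT1 siRNA. The CCT6A groups did not overlap, and the fit gave a log2 difference of 1.07 (SE 0.12, FDR = 4.26e-08) with control siRNA and of 1.21 (SE 0.13, FDR = 7.49e-09) with CNOT1 siRNA. CCT8 was at 303, 346.5, 239.6 and 270.4 CPM in subpolysomal and 591, 698, 701 and 663 CPM in polysomal RNA with control siRNA, and at 272, 287, 238 and 231.5 against 648, 718, 659.9 and 695 CPM with CNOT1 siRNA. CCT8 had a log2 difference of 1.19 (SE 0.11, FDR = 3.72e-10) with control siRNA and of 1.40 (SE 0.11, FDR = 3.49e-11) with CNOT1 siRNA. With control siRNA the polysomal libraries of all 8 lay above the subpolysomal ones, as in 27.4% of genes, and with CNOT1 siRNA those of 7, all but TCP1, as in 28.3% of genes. The TCP1 exception came with the library labelled replicate 3, whose CNOT1 level went against its label. Subpolysomal replicate 2 was the highest of its group for each subunit under both siRNAs. Without the 2 libraries whose CNOT1 level went against their labels, all 8 remained called under both siRNAs, at 0.57 (TCP1) to 1.81 (CCT7) with control and 0.53 (TCP1) to 1.76 (CCT5) with CNOT1 siRNA, beside 33.7% and 36.0% of all genes called higher.

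**Figure D2:**
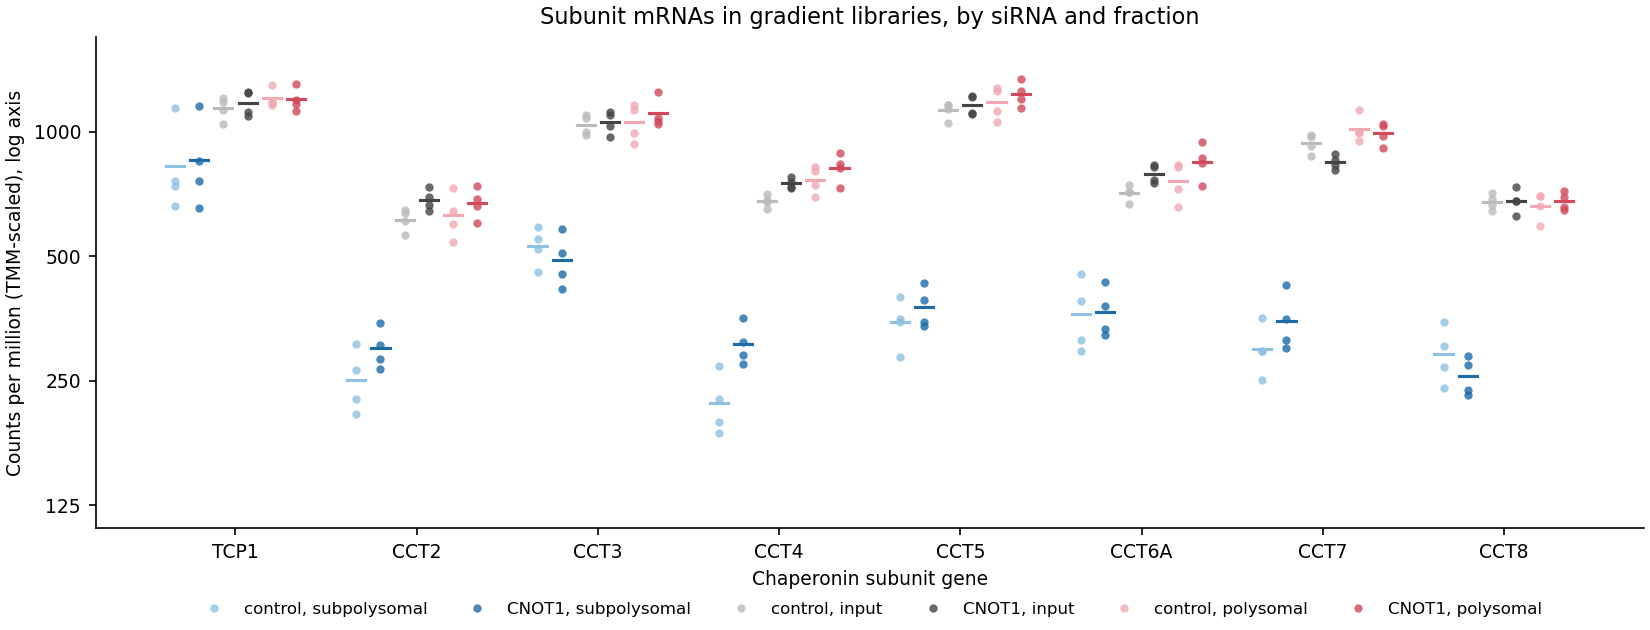
CPM (log axis) of the 8 CCT mRNAs in the 24 gradient libraries; points are libraries and bars are means of input, subpolysomal and polysomal RNA with control or CNOT1 siRNA (n = 4 each, by label). Polysomal points lie near the input points, and subpolysomal points lie below both, except in TCP1, where subpolysomal replicate 2 approaches the polysomal libraries.

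**Figure D3:**
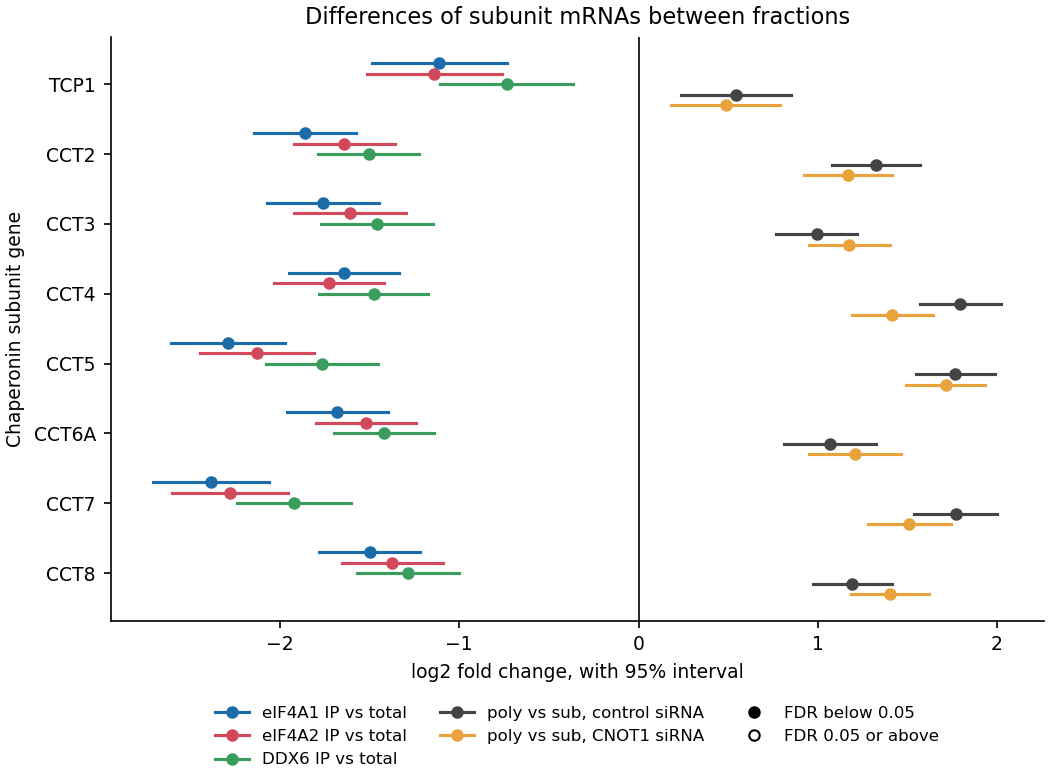
Log2 differences of the 8 CCT mRNAs with 95% intervals, for each IP against total RNA and for polysomal against subpolysomal RNA under both siRNAs. The IP values lie between -0.74 and -2.38 and the polysomal values between 0.49 and 1.80, and TCP1 is nearest to 0 in each.

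Put together, the 2 experiments gave all 8 subunits as lower in each of the 3 IPs and higher in polysomal RNA of control cells. Of 16272 genes tested in both, 2902 (17.8%) were lower in all 3 IPs and 1940 (11.9%) were also higher in polysomal RNA, which is 66.9% of the 2902. Among the subunits, the more polysomal an mRNA was, the lower it tended to be in the IPs. Pearson's r between the log2 differences was -0.788 for the eIF4A1, -0.86 for the eIF4A2 and -0.856 for the DDX6 IP over the 8 mRNAs (Spearman's rho -0.5, -0.833 and -0.762), with TCP1 at one end. How far these values rest on TCP1 was not tested. These are correlations across genes, which are not independent replicates: the points share the libraries of each experiment, and the subunits a like coding length. Over all 16272 genes r was -0.115, -0.284 and -0.045 (rho -0.263, -0.377 and -0.202). Without the 2 libraries that went against their labels, all 8 subunits were again lower in the 3 IPs and higher in polysomal RNA, as were 1897 of 16473 genes (11.5%), and r over the 8 was -0.788, -0.871 and -0.848 (rho -0.619, -0.881 and -0.833) and over all genes -0.108, -0.288 and -0.033.

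**Figure D4:**
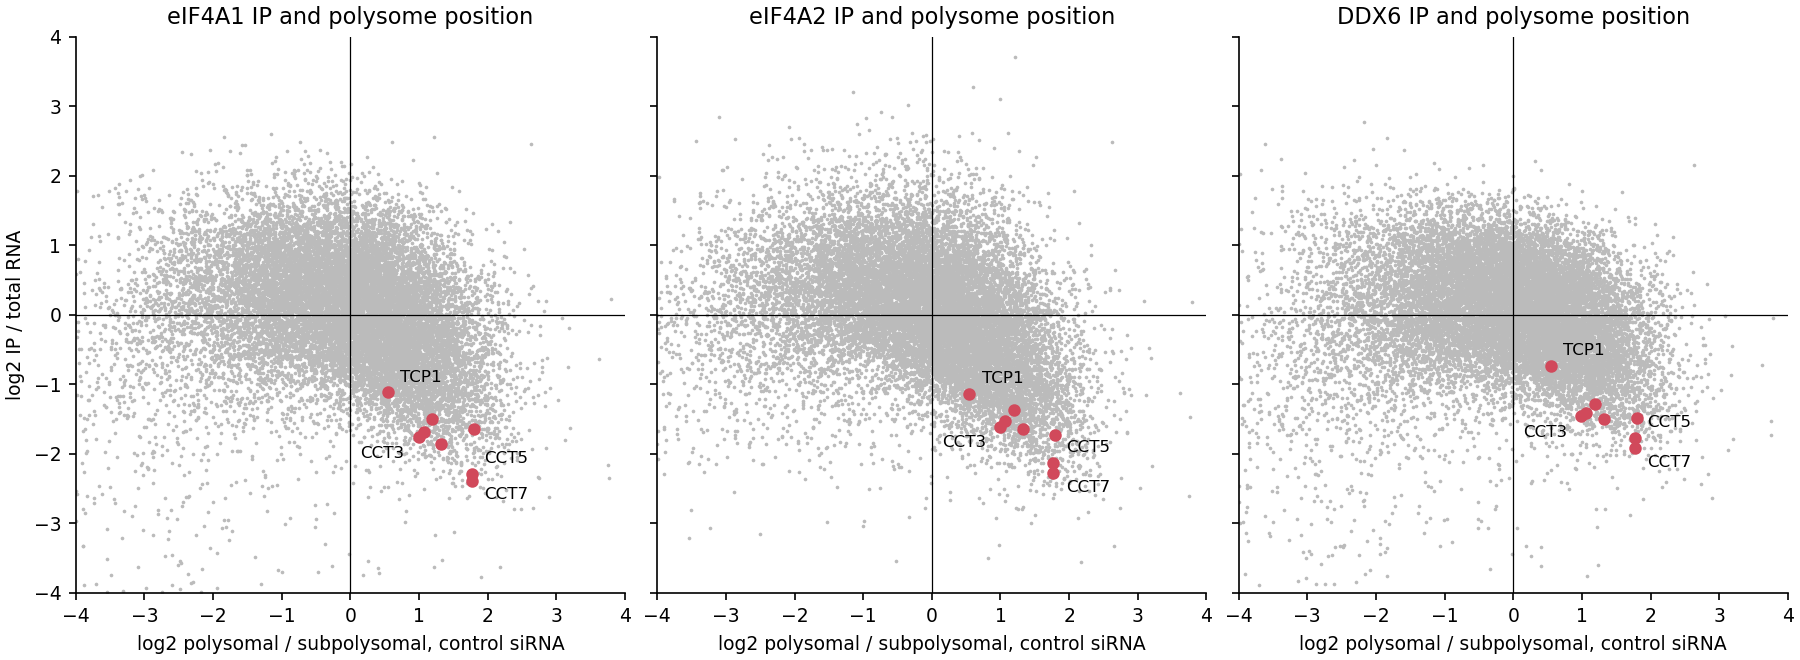
Log2 difference of IP against total RNA (vertical) and of polysomal against subpolysomal RNA with control siRNA (horizontal), for 16272 genes in grey and the 8 CCT mRNAs in red, with 1 panel per antibody; 199 genes lie outside the axes. The subunits all sit in the lower right part, with TCP1 nearest to the origin.

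The CNOT1 siRNA comparison asked what changed when Ccr4-Not was depleted. In input RNA no subunit passed the test. CCT4 was at 709, 683, 651 and 675 CPM with control and 779, 755, 737 and 731 CPM with CNOT1 siRNA, and CCT6A at 716, 745, 669 and 716.5 against 823, 831, 754 and 766. For these 2 subunits each CNOT1 siRNA library was above each control library, as in 24.9% of genes. The log2 differences were 0.14 (-0.08 to 0.36) and 0.16 (-0.10 to 0.41), CCT2 was at 0.16, CCT7 at -0.15 (-0.38 to 0.08), and the other 4 lay between 0.00 and 0.04. The edgeR FDR ran from 0.299 to 0.978 and no unadjusted p was under 0.05, while 13.4% of genes were called higher and 15.6% lower. When only the 8 input libraries were fitted, and the spread was no longer shared with the fractions, 4 passed: CCT2 at 0.17 (FDR = 0.015), CCT4 at 0.16 (FDR = 0.0101), CCT6A at 0.17 (FDR = 0.0106) and, lower, CCT7 at -0.14 (FDR = 0.0342). In that fit 30.9% of all genes were called higher and 30.0% lower. As a share of all counts the 8 made up 0.614% to 0.665% of control and 0.690% to 0.728% of CNOT1 siRNA input. This unscaled share did not overlap between the groups, and the TMM factors that scale it were 0.912 to 0.945 and 0.965 to 1.02.

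In subpolysomal RNA CCT4 was the one subunit that passed the test. It was at 220.5 ± 37.5 CPM with control and 307 ± 35.3 CPM with CNOT1 siRNA (mean ± SD, n = 4), 1.39-fold higher, with a log2 difference of 0.48 (95% interval 0.26 to 0.70, edgeR FDR = 0.00176). Its libraries did not overlap, as in 11.5% of genes in this direction. CCT2 was at 0.25 (0.01 to 0.50, FDR = 0.098), CCT7 at 0.22 (FDR = 0.127), and CCT8, the lowest, at -0.17 (FDR = 0.206). Of all genes 13.0% were called higher and 19.1% lower. CNOT1 itself was lower there by a log2 difference of -1.79 (95% interval -3.32 to -0.27) and did not pass (edgeR FDR = 0.065). In input RNA its log2 difference was -4.08 (FDR = 0.00673). This fit holds the 2 polysomal libraries whose CNOT1 level went against their labels. Control subpolysomal replicate 2 was the highest control library for each subunit. Without it CCT2 (0.36, FDR = 0.0222) and CCT7 (0.31, FDR = 0.0361) passed as well, where 12.8% of all genes were called higher. That fit kept CNOT1 siRNA subpolysomal replicate 2, likewise the highest of its group, so it is unbalanced between the siRNAs. No fit left out both.

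In polysomal RNA the siRNA differences ran from -0.04 (CCT7) to 0.16 (CCT6A), with FDR from 0.7 to 0.991. Of all genes edgeR called 0% higher and 0% lower, and at an unadjusted p under 0.05 there were 433 higher and 690 lower, and DESeq2 called none. These fits hold the 2 libraries whose CNOT1 level went against their labels. Without them the subunits ran from -0.09 (CCT7) to 0.26 (CCT6A), with FDR from 0.14 to 0.974, and none passed, whereas 17.1% of all genes were then called higher and 14.6% lower. The difference between the siRNA effects in the fractions (the interaction term) was -0.38 for CCT4 (95% interval -0.69 to -0.07, FDR = 0.141), -0.26 for CCT7 (FDR = 0.353) and 0.21 for CCT8 (FDR = 0.436). No subunit passed this test by edgeR or DESeq2, CCT4 alone had an unadjusted p under 0.05, and 3.26% of genes were called higher and 2.40% lower. Without control subpolysomal replicate 2 the CCT4 term was -0.50 and passed (FDR = 0.0341), beside 3.19% of genes called lower. That fit too kept the high CNOT1 siRNA subpolysomal replicate 2. Without the 2 polysomal libraries the CCT4 term was -0.30 (FDR = 0.19).

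In total RNA of cells with TNRC6A/B siRNA, no subunit passed the test. CCT6A was at 626 and 698 CPM with control and 683 and 747.5 with TNRC6A/B siRNA, and CCT3 at 1457 and 980.5 against 1202 and 1001. The control libraries of CCT3 differed from each other by more than the groups did. CCT2 was at 671 and 598 CPM with control and 597.5 and 570.4 with TNRC6A/B siRNA, CCT4 at 640 and 655.5 against 604.5 and 607, and CCT5 at 1148 and 1013 against 973 and 991.5. For these 3 subunits both TNRC6A/B siRNA libraries lay below both control libraries, as in 14.4% of genes. Log2 differences were negative for 7 of the 8 and ran from -0.15 (CCT7) to 0.11 (CCT6A) with standard errors of 0.16 to 0.26, and the interval of CCT3 reached from -0.81 to 0.52. With 2 libraries per group edgeR called 0% of 14064 genes higher and 0% lower, the knocked-down mRNAs included, and at an unadjusted p under 0.05 there were 173 higher and 116 lower. DESeq2 called 6 higher and 2 lower, and the fit with the replicate block 520 and 243, none of them a CCT subunit. Same-numbered libraries of this experiment deviated together (r = 0.929 in both pairs), which the fit without the block leaves out.

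**Figure D5:**
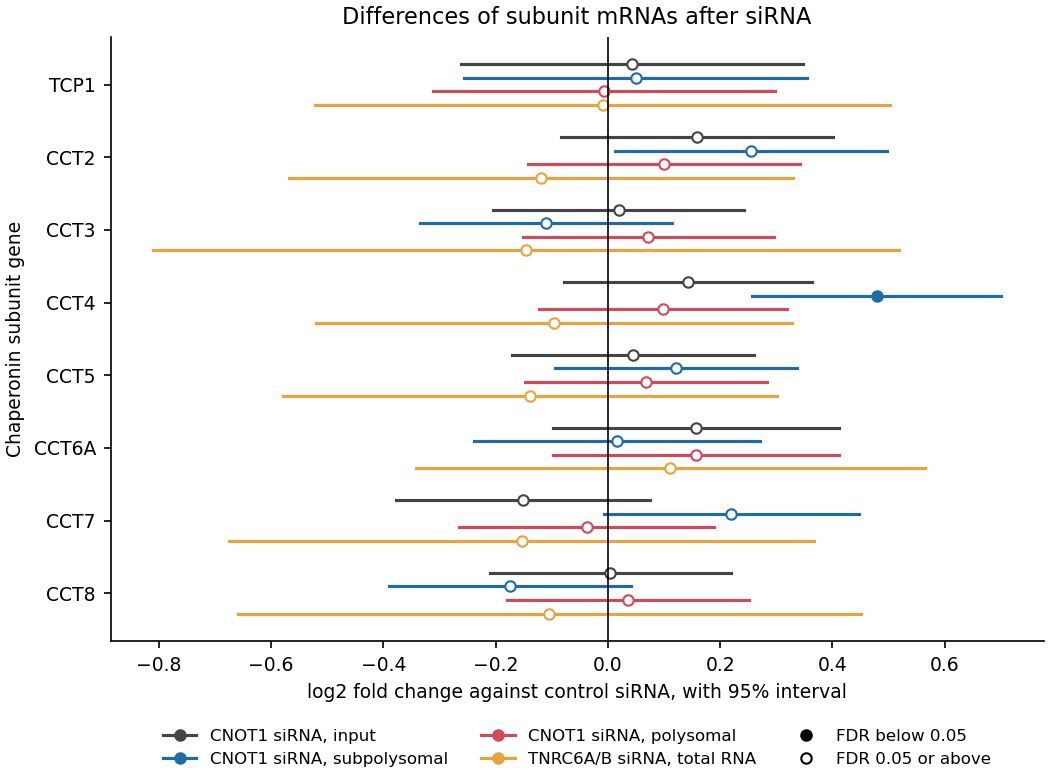
Log2 differences of the 8 CCT mRNAs with 95% intervals for CNOT1 against control siRNA in input, subpolysomal and polysomal RNA (n = 4 each, by label) and for TNRC6A/B against control siRNA (n = 2 each). The filled point, CCT4 in subpolysomal RNA at 0.48, is the one value with an FDR under 0.05, and the TNRC6A/B intervals are the widest.

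Some neighbouring and related sequences bear on what the counts of the subunits mean. The strand setting of the authors' counting is not given in the sources used here, so reads of a gene and of an antisense partner cannot be told apart. TCP1 shares 454 nt (9.3% of its exonic sequence) with ACAT2, a gene of acetyl-CoA metabolism on the opposite strand. ACAT2 held 1464 to 8095 counts per library and differed by -1.49, -1.59 and -1.21 in the eIF4A1, eIF4A2 and DDX6 IPs and by 1.56 and 1.47 in polysomal RNA with control and CNOT1 siRNA, further from 0 than TCP1 in each, and its part in the TCP1 values was not tested. Without the 2 libraries whose CNOT1 level went against their labels, the ACAT2 polysomal values were 1.63 and 1.44. CCT5 shares 1734 nt (30.76%) with an antisense lncRNA, CCT4 275 nt (10.18%) and 181 nt (6.7%) with 2 others, and CCT8 85 nt (2.54%). Rows of processed pseudogenes of TCP1, CCT4, CCT5, CCT7 and CCT8 held at most 11 counts in any library.

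CCT6A has expressed pseudogenes on its own chromosome, and their rows went the other way. CCT6P1 (chr7:65216129-65228323, plus strand, 54 to 1076 counts) rose in the IPs, by 0.51 (edgeR FDR = 0.0411) with eIF4A1, 0.78 (FDR = 0.00471) with eIF4A2 and 0.88 (FDR = 0.00263) with DDX6, and was lower in polysomal RNA by log2 differences of -3.12 and -2.72 with control and CNOT1 siRNA. With CNOT1 siRNA it fell by 0.56 (FDR = 0.016) in input RNA, and the decrease in the subpolysomal fraction was -0.72 (FDR = 0.00155). CCT6P3 (16 to 252 counts, a symbol with 2 annotated loci) behaved alike, at 0.88, 1.25 and 1.34 in the IPs and -2.64 and -2.23 in polysomal RNA. Without those 2 libraries the polysomal values were -3.0 and -2.77 for CCT6P1 and -2.54 and -2.54 for CCT6P3, which was then also lower with CNOT1 siRNA in polysomal RNA (-0.80, FDR = 0.0304). Together these rows held 1.37% to 2.37% of the CCT6A count in RIP total RNA, 6.90% to 11.05% in the IPs, 12.3% to 13.11% in subpolysomal RNA with control and 6.81% to 8.90% with CNOT1 siRNA, and 0.32% to 1.03% in polysomal RNA. Reads that match both CCT6A and these copies are uncertain in assignment. CCT6B, the testis form of the zeta subunit, held 6 to 33 counts and was called in no comparison, except that without those 2 libraries it was lower in polysomal RNA of control cells (-0.82, FDR = 0.0334).

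The genes that work with CCT were taken from lists chosen with earlier results of these data known, and their counts are a description. Of all genes, 26.5%, 25.8% and 23.3% were called lower in the eIF4A1, eIF4A2 and DDX6 IPs, and 26.1%, 24.5% and 22.7% higher. In polysomal RNA 34.8% were called higher and 37.0% lower with control siRNA, and 34.1% and 34.7% with CNOT1 siRNA. With CNOT1 siRNA 13.4% were called higher and 15.6% lower in input, and 13.0% and 19.1% in subpolysomal RNA. For the interaction term 3.26% were called higher and 2.40% lower. Among the 9 actins and tubulins that CCT folds, 7, 8 and 6 passed as lower in the eIF4A1, eIF4A2 and DDX6 IPs and none as higher, with median log2 differences of -1.90, -1.86 and -1.53 and the largest decreases in TUBA1A (-2.29 and -2.18) and TUBB4B (-1.75 with DDX6). In polysomal RNA of control cells 7 of the 9 were higher, TUBG1 most (1.99), and 2 lower, TUBA1B most (-0.56), with a median of 1.82; with CNOT1 siRNA 8 were higher and none lower (median 1.53, TUBA1A 2.02). TUBA1B also fell with CNOT1 siRNA in input (-0.39) and in subpolysomal RNA (-1.11), where ACTB rose (0.45), and its interaction term passed (1.00, FDR = 0.000798). Of 10 WD40 and other clients, 4, 5 and 4 were lower in the IPs, CDC20 most (-1.67, -1.78 and -1.34), and 2 were higher in each, VHL most (0.86, 0.78 and 0.78), with medians of -0.12, -0.46 and -0.02. In polysomal RNA of control cells 8 were higher and 2 lower, with GNB2 (1.98) and VHL (-1.19) at the ends, and with CNOT1 siRNA 6 were higher and 1 lower, with RPTOR (1.51) and VHL (-1.27), and the medians were 0.45 and 0.51. With CNOT1 siRNA, CCNE1, a cyclin, rose in input (0.60) and in subpolysomal RNA (0.63, 1 of 2 called higher there), BUB3 fell in subpolysomal RNA (-0.25), and GNB1 had a called interaction term (-0.56).

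Prefoldin, which hands actin and tubulin chains to CCT, was less uniform. Of its 6 subunits 1, 4 and 0 were lower in the eIF4A1, eIF4A2 and DDX6 IPs, VBP1 most (-0.95 and -1.23), with medians of -0.29, -0.66 and -0.03. In polysomal RNA 4 were higher under each siRNA (medians 0.86 and 0.53), PFDN6 most in control cells (1.60), and PFDN5 was lower there (-0.67). With CNOT1 siRNA 2 prefoldin mRNAs fell in input, PFDN5 most (-0.58), and in subpolysomal RNA PFDN5 fell (-0.88) and PFDN2 rose (0.71), with a called interaction for PFDN2 (-0.60). The 3 phosducin-like cofactors, PDCL, PDCL3 and TXNDC9, also bind CCT: 2, 3 and 2 were lower in the IPs, TXNDC9 most (-1.49, -1.34 and -1.06), with medians of -0.90, -0.97 and -0.51, and all 3 were higher in polysomal RNA under both siRNAs, with medians of 1.24 and 1.46 and PDCL3 at 1.75 in control cells. Of the 6 other chaperonin genes, 2, 2 and 3 were lower and 1, 0 and 2 higher in the IPs, and 3 were higher and 2 lower in polysomal RNA under each siRNA, with medians of -0.17, -0.14, -0.15, -0.06 and 0.02. The mitochondrial chaperonin HSPD1 was lower in each IP (-1.82, -1.62 and -1.34) while its partner HSPE1 was higher with eIF4A1 (0.74) and DDX6 (0.89) and higher in polysomal RNA of control cells (1.38). BBS10, a chaperonin-like protein of cilia, was lower in polysomal RNA under control (-2.18) and CNOT1 siRNA (-1.46), and with CNOT1 siRNA HSPE1 rose (0.53) and BBS10 fell (-0.76) in subpolysomal RNA. The 15 genes of the cytosolic HSP70 and HSP90 system gave 10, 12 and 10 lower and none higher in the IPs, HSPA4 most (-2.79, -2.59 and -2.21), and 13 and 12 higher in polysomal RNA with control and CNOT1 siRNA, again HSPA4 most (2.38 and 2.28), with medians of -1.32, -1.19, -1.02, 1.62 and 1.57. In this system 5 mRNAs rose in input with CNOT1 siRNA, HSPA1B most (1.72), and ST13 fell (-0.50), and in subpolysomal RNA 5 rose (HSPA1B 1.38) and 2 fell (CDC37 most, -0.55). Between the eIF4A2 and DDX6 IPs, mRNAs of 5 of these 6 lists were lower with eIF4A2: 4 actins and tubulins (TUBA1B -1.0), 2 WD40 and other clients (GNB2 -0.99), 3 prefoldin subunits (PFDN2 -1.51), PDCL (-0.54) and 3 of the HSP70 and HSP90 system (ST13 -0.97). Of all genes, 11.3% were called lower in that comparison. With TNRC6A/B siRNA, and in the eIF4A2 and DDX6 IPs against the eIF4A1 IP, the unblocked fits called no gene of these lists. Few or none of all genes were called there: 0% with TNRC6A/B siRNA, 0.973% higher and 0.0858% lower with eIF4A2, and 0.0801% and 0.0114% with DDX6. Calls of the list genes with the replicate block were not examined. Without the 2 libraries that went against their labels, the counts in polysomal against subpolysomal RNA were the same but for 3: of the WD40 and other clients 7 were higher and 1 lower with control siRNA, as PPP2R2A (0.22, FDR = 0.0643) and MLST8 (-0.69, FDR = 0.054) lost their calls, 14 of the HSP70 and HSP90 system were higher with CNOT1 siRNA, and 3 of the other chaperonins were lower with control siRNA. Between the siRNAs in polysomal RNA, where no gene of these lists was called with all libraries, 6 of the HSP70 and HSP90 system were then higher (HSPA1B most, 1.59) and ST13 lower (-0.41), 4 prefoldin mRNAs were lower (PFDN5 most, -0.55), CCNE1 (0.57), TUBA1C (0.42) and TXNDC9 (0.40) were higher, and VHL was lower (-0.64). Of all genes 17.1% were then called higher and 14.6% lower. The interaction term was then also called for TUBA1C (0.62), TXNDC9 (0.55), HSPE1 (-0.67), PFDN1 (-0.47) and PFDN6 (-0.54). Of 17115 genes, 1709 were then called higher and 1285 lower for this term.

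Over the 12 groups the subunits kept close company. The profile of each subunit (log2 of the group mean CPM + 0.5, centred within each experiment) had a Pearson's r with the mean of the other 7 of 0.953 for TCP1, 0.98 for CCT4, 0.983 for CCT8, 0.992 for CCT3 and CCT6A, 0.995 for CCT2 and CCT7 and 0.998 for CCT5. Among 8819 genes with at least 10 CPM in each experiment, those most like the subunits' mean were RTCB (r = 0.9974), an RNA ligase, GOT2 and GNAI3 (0.9973 each), CD44 (0.9968), the splicing factor SF3A3 (0.9965), the tRNA synthetase gene TARS (0.9955), IMMT (0.9954), VRK1 (0.9947), the HSP70 and HSP90 co-chaperone STIP1 (0.9945) and ARCN1 (0.9942). RTCB, for example, was at -2.13, -1.89 and -1.67 in the 3 IPs and 1.47 in polysomal RNA of control cells, and STIP1 at -2.38, -2.44 and -1.96, and 1.62. A high r was common, with 1220 of the 8819 genes above 0.9. Without the 2 libraries that went against their labels, r with the mean of the other 7 was 0.956 for TCP1 to 0.998 for CCT5, 9 of these 10 genes were again among the 10 most alike (r of 0.9911 to 0.9973 for the 10), and 1079 of 8816 genes lay above 0.9.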

How the data were processed

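RNA-Seq of 40 HEK293 libraries in 12 groups was analysed. The authors deposited 1 unnormalised integer count per gene symbol and library, made with bcl2fastq 2.0, TopHat2 on hg19 and htseq-count from strand-specific libraries; the strand setting is not given in the sources used here. Per the file headers, a further table of the authors' comparisons holds log2 fold changes and log2 mean CPM, a likelihood ratio score and p-values, and it was not used.

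Counts were fitted with edgeR 4.0.16 in R 4.3.3, 1 fit per experiment (12, 24 and 4 libraries), after filterByExpr (17474, 16776 and 14064 genes) and TMM scaling, with quasi-likelihood F-tests, which are two-sided. Calls were made at an FDR (Benjamini-Hochberg) under 0.05, adjusted across each fit's genes. Intervals are 95%. CPM use TMM-scaled library sizes. Total counts were 15.4 to 46.0 M per library. Reads carry no molecular identifiers, so depth speaks for counting error only. Groups and replicate numbers come from the labels, which do not say that replicates were separate cultures, so p-values measure the spread between these libraries, which may be technical. No 2 of 50 replicate pairs held identical counts, and the lowest chi-square per gene was 5.49.

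Same-numbered RIP-Seq libraries deviated together: over 10021 genes, all 18 pairs had r over 0.1 (0.175 to 0.884). Blocked values are therefore given where they change a call of a subunit, and were not examined for genes of the lists. For total RNA replicate 3 the title was followed; its description gives another number. Sequences, positions and lengths came from GENCODE 44 and the genome sequence on GRCh37, the same build as hg19.

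The CCT subunits, the lists and the rules were chosen with earlier results of these data known. Named genes are the 8 subunits, the targeted genes, related or overlapping rows, the called gene with the largest increase and decrease of each list, and the 10 genes with the profile most like the subunits' mean. Alternatives were DESeq2 1.42.0, other scaling, no filter, only the compared libraries, the replicate block, each library left out and, for the gradient, both polysomal libraries whose CNOT1 level went against their labels. Figures were drawn with matplotlib 3.10.9. The scripts were tested on simulated data.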

Additional observations from a re-analysis of the deposited data

Results flagged for a closer look

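TCP1 in polysomal RNA with control siRNA had 1 library far from the others: replicate 2 was at 1300 CPM, where the other 3 lay between 1164 and 1183 CPM. Its gap to the nearest library was 0.86 of the range of the group, above Dixon's 95% critical value for 4 libraries. Chance gives about 1 such library in 20 groups, and 48 groups of 4 were checked for the CCT subunits. Replicate 2 was also the highest TCP1 library in control input, in subpolysomal RNA under both siRNAs and in polysomal RNA with CNOT1 siRNA. In CNOT1 siRNA input it was at 1244 CPM, below replicate 1 at 1251 CPM.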

How the results depend on the processing

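All 41 called values of the CCT subunits kept their direction and their call under every alternative, and none of 1352 values reversed as a called value; 24 passed the threshold only under an alternative, and 41 changed sign where neither value was called. Counts of subunits moved as follows. Called higher in the DDX6 against the eIF4A1 IP were 0, 2 with DESeq2, 3 with the replicate block and 5 with the block over the IP libraries alone, which was added after seeing the data. Called lower in the eIF4A2 against the DDX6 IP were 0, 1 with DESeq2 and 3 with either block. With CNOT1 siRNA in input, 0 and 0 became 3 higher and 1 lower when only the compared libraries were fitted. In subpolysomal RNA, leaving out 1 library gave 1 to 3 higher, and in the interaction 0 to 1 lower. The changes came without control subpolysomal replicate 2, while CNOT1 siRNA subpolysomal replicate 2, also the highest of its group, stayed in. The block changed no other call of a subunit. In the gradient same-numbered libraries deviated together in part only. Of 60 pairs 30 had r over 0.1, with r from -0.631 to 0.868, and 48 of 120 were best with their own number. The TNRC6 experiment has 2 pairs, both at 0.929. The cause of these changes was not tested.

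Over all genes, calls higher and lower between the eIF4A2 and eIF4A1 IPs were 170 and 15, and 541 and 159 with DESeq2, 459 and 538 unfiltered, 1245 and 1521 with the block, 1491 and 1818 with the block over the IP libraries alone and 24 and 0 with only the compared libraries. For DDX6 against eIF4A1 they were 14 and 2, and 362 and 177, 130 and 102, 1062 and 668, 1604 and 827, and 0 and 0. For eIF4A2 against DDX6, 1716 and 1969 became 3232 and 3842 with the block and 3270 and 4038 with it over the IP libraries alone. CNOT1 input gave 2245 and 2614, and 4848 and 4713 with only the compared libraries. CNOT1 polysomal gave 0 and 0, and 3 and 43 unfiltered, 2925 and 2501 without both libraries that went against their labels. The interaction gave 547 and 402, 753 lower with DESeq2, 259 and 650 unfiltered, 95 and 62 with only the compared libraries, and 1709 and 1285 without those libraries. TNRC6A/B siRNA gave 0 and 0, and 6 and 2 with DESeq2, 20 and 3 unfiltered, 520 and 243 with the block. Where leaving out 1 library moved these counts by over 1.5 times, they lay at 42 to 104 higher and 1 to 35 lower (eIF4A2 against eIF4A1), 0 to 8 and 0 to 5 (DDX6 against eIF4A1), 745 to 1138 and 723 to 1193 (eIF4A2 against DDX6), 1354 to 1469 and 1568 (CNOT1 input) and 349 to 1208 and 260 to 828 (interaction). CNOT1 polysomal gave 1699 and 1148 without the library labelled control replicate 3, and 198 and 403 without that labelled CNOT1 siRNA replicate 3.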
